A study of Mus musculus with 12 samples.

Results

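Gene expression was compared between HMGN1-OE and wild-type mouse myeloid progenitors 96 h after they were released into differentiation. The members were chosen by detection alone, as the genes that reached 1 FPKM in 2 or more of the series' 12 RNA-seq libraries, and 11516 of the 23309 genes listed met this rule. FPKM is the number of fragments set against the transcript's length and the size of the library, here after a scaling by the authors to synthetic ERCC RNAs. The comparison rested on 4 libraries, 2 of HMGN1-OE and 2 of wild-type cells at 96 h, which are called A and B in the order of the columns of the table. The other 8 libraries, the same genotypes at 0 h and 36 h, entered the fit for its estimate of the spread and for the test of whether a difference at 96 h differed from that at an earlier time.

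Both genotypes are cultures from mouse bone marrow that carry a retroviral fusion of the estrogen receptor with HoxB8. The fusion holds the cells as granulocyte and macrophage progenitors while estradiol (E2) is present, and withdrawal of E2 started the clock of 0, 36 and 96 h. HMGN1-OE cells come from transgenic mice that carry human HMGN1, and wild-type cells come from littermates without the transgene. The authors extracted RNA from equal numbers of cells. Human transgene reads were not used here, and the study calls the libraries of a group biological replicates without saying whether they came from separate animals.

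HMGN1 is a nucleosome-binding protein that loosens the packing of chromatin. On the path from progenitor to neutrophil, granule proteins are made in a fixed order. Proteases and myeloperoxidase of the primary (azurophil) granules are transcribed in promyelocytes and then shut off, proteins of the secondary granules follow in myelocytes, and gelatinase, formyl peptide receptors and the chemokine receptor Cxcr2 come last. Progenitors of this kind can also form eosinophils, whose granules hold major basic protein, eosinophil peroxidase and small ribonucleases, as well as basophils and macrophages.

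Some markers of myeloid maturation were high at 96 h in both genotypes, which alone does not show that either had reached the terminal stage. The study reports that HMGN1-OE cells still lacked mature morphology by then and gained mature surface markers later than wild-type cells. S100a8, a calcium-binding alarmin of neutrophils, was the gene with the highest FPKM in each of the 4 libraries at 96 h. It took between 12.83% and 15.55% of a library's FPKM, whereas no gene took more than 1.81% at 0 h or 36 h. Itgam (CD11b, the integrin of mature myeloid cells) was at 218 and 233 FPKM in the HMGN1-OE libraries and at 302 and 190 FPKM in the wild-type libraries, against 3.19 to 26 FPKM in the 8 earlier libraries. Kit, the stem cell factor receptor of progenitors, was at 9.58 and 8.85 FPKM in HMGN1-OE and at 12.3 and 5.23 FPKM in wild-type cells. Cebpe, the factor that drives secondary granule genes, was at 87.8 and 97.8 FPKM against 134 and 42.7 FPKM. The genotypes overlapped in all 3 genes, and none passed the test. Ly6g, the usual surface marker of mouse neutrophils, is not among the genes tested.

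The wild-type B library stood apart in overall level, and this touches every result below. Its median over the tested genes was 3.056 FPKM, against 6.92 FPKM in the wild-type A library and 5.744 and 7.316 FPKM in the HMGN1-OE libraries. Over genes, the log2 difference (HMGN1-OE minus wild type) had a median of 0.36 as deposited, while the wild-type B library differed from the wild-type A library by -0.89. An exact two-sided permutation test of the library medians gave p = 0.667, and with 2 libraries against 2 it cannot go below 0.33. In bulk RNA, fewer cells of a type and less RNA per cell cannot be told apart. Differences are therefore given on the log2(FPKM + 1) scale as deposited, and the main ones again after every library was divided by its own median FPKM (median-scaled), which brought the median difference to 0.0068. Centring each library on its median log2 level, the other scaling of the design, subtracts the same 0.40 from every difference. After it the median difference still went from -0.30 in genes with a mean log2 level of at most 1 to 0.29 in genes above 8, and for this reason the median-scaled values are given beside the deposited ones. Median scaling removed less of this at high levels, with a median difference of 0.09 left in genes of a level of 6 to 8 and 0.20 in genes above 8, where the abundant granule and ribosomal genes stand.

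As deposited, 77 of the 11516 genes (0.669%) had an adjusted p-value under 0.05 in limma and are called different here, 37 higher (0.321%) and 40 lower (0.347%) in HMGN1-OE cells. The balance of the directions depended on the pseudocount and on single libraries. It was 59 higher and 38 lower with a pseudocount of 0.1, 69 and 32 with 0.01, 92 and 35 without the wild-type A library and 15 and 30 without the wild-type B library. Small RNA genes (microRNA, small nucleolar and small nuclear RNA genes, or exons of under 200 bases) made up 34 of the calls (44.2%), although they are 95 of the genes tested (0.825%). Among the other 43 called genes, 16 had the higher and 27 the lower level in HMGN1-OE cells, and no wild-type library overlapped an HMGN1-OE library in 14 of the 16 and 25 of the 27. Over all tested genes, the libraries did not overlap with HMGN1-OE higher in 10.2% and with HMGN1-OE lower in 2.97%. All 43 kept their direction when median-scaled, which is no separate support because they were chosen for large differences. The calls thinned. Median-scaled, 35 genes (0.304%) were called, 18 higher (0.156%) and 17 lower (0.148%), and 11 of them were also called as deposited. With each library centred, 7 genes (0.0608%) were called.

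**Figure D1:**
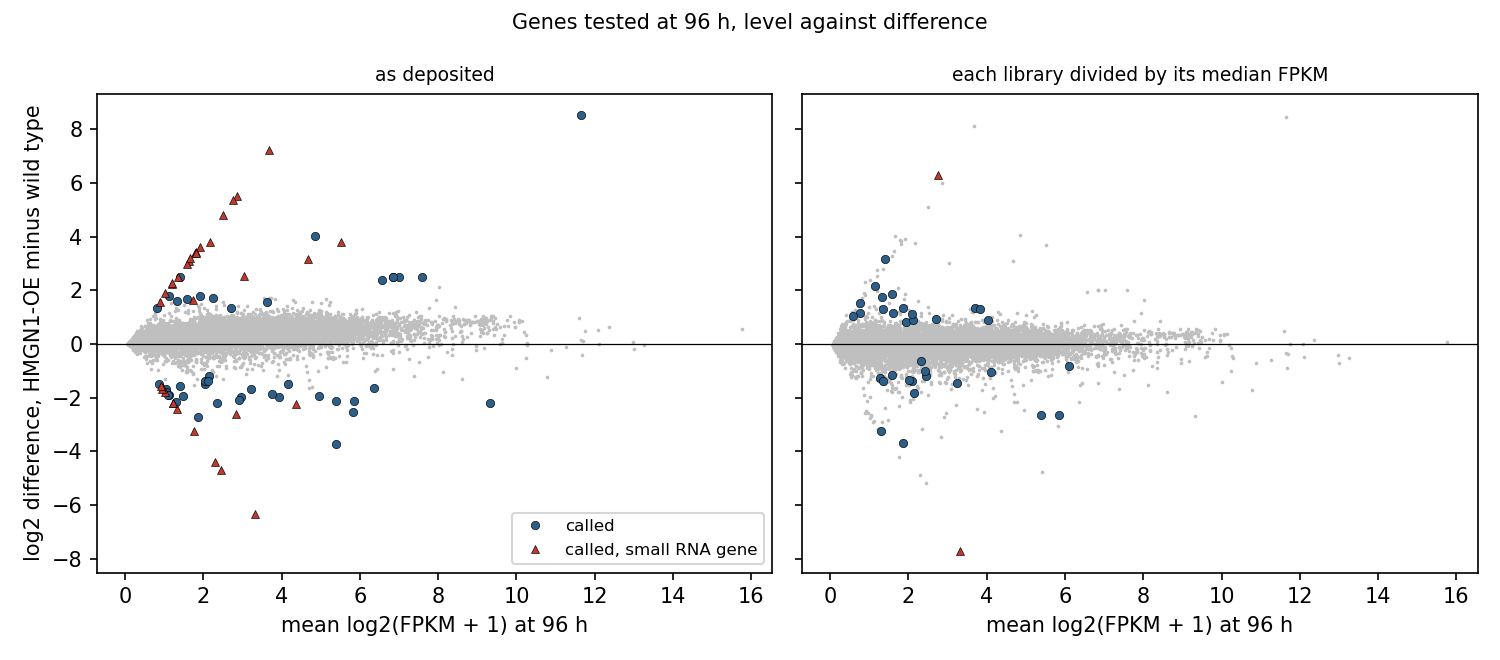
Each point is 1 of the genes tested at 96 h, with its mean log2(FPKM + 1) over the 4 libraries against its log2 difference (HMGN1-OE minus wild type), as deposited (left) and median-scaled (right). Circles are called genes and triangles called small RNA genes, which make up 34 of 77 calls as deposited and 2 of 35 after median scaling.

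Mpo, Elane and Ctsg, genes of the primary granule, were called higher in HMGN1-OE cells as deposited, and not when median-scaled. They were 3 of the 15 genes tested from a list of 16 primary granule proteins, against 0.321% of all genes. None of the 15 was called lower. Elane, neutrophil elastase, was at 168 and 554 FPKM in the HMGN1-OE A and B libraries and at 129 and 21.7 FPKM in the wild-type A and B libraries. Both HMGN1-OE values lay above both wild-type values, and the log2 difference was 2.50 ± 0.60 (SE, adjusted p = 0.00626). Ctsg, cathepsin G, was at 151 and 479 FPKM against 107 and 20.6 FPKM, and the log2 difference was 2.48 ± 0.63 (adjusted p = 0.0127). Mpo, myeloperoxidase, was at 114 and 406 FPKM against 116 and 13.5 FPKM, so that the HMGN1-OE A library did not exceed the wild-type A library, and its log2 difference was 2.39 ± 0.62 (adjusted p = 0.017). Prtn3, proteinase 3, was at 345 and 853 FPKM against 299 and 51.5 FPKM and did not pass the test, with a log2 difference of 2.11 and an adjusted p of 0.0883.

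Much of the size of these differences came from 2 libraries, the HMGN1-OE B library, in which the 4 genes were highest, and the wild-type B library, in which they were lowest. Median-scaled, the log2 differences were 1.93 for Mpo, 2.03 for Elane, 2.01 for Ctsg and 1.63 for Prtn3, without overlap of the libraries, and the adjusted p-values lay between 0.116 and 0.142. Without the wild-type B library the deposited differences were 0.88 for Mpo, 1.24 for Elane and 1.32 for Ctsg and none was called. Without the HMGN1-OE B library they were 1.48, 1.64 and 1.66, again with no call. The 3 were called with pseudocounts of 0.1 and 0.01, but not from the 96 h libraries alone (adjusted p from 0.231 to 0.275). The other abundant members of the list differed less. Lyz2, lysozyme, was at 3098 and 3893 FPKM against 3303 and 3157 FPKM, and Serpinb1a, an inhibitor of the same proteases, was at 396 and 579 FPKM against 488 and 166 FPKM. Over the 15 genes the median log2 difference exceeded that of all genes by 0.39 as deposited and by 0.25 median-scaled. The deposited value was 0.89 without the HMGN1-OE A library, 0.73 without wild-type A, 0.25 without HMGN1-OE B, 0.24 without wild-type B and 0.12 after quantile normalization.

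**Figure D2:**
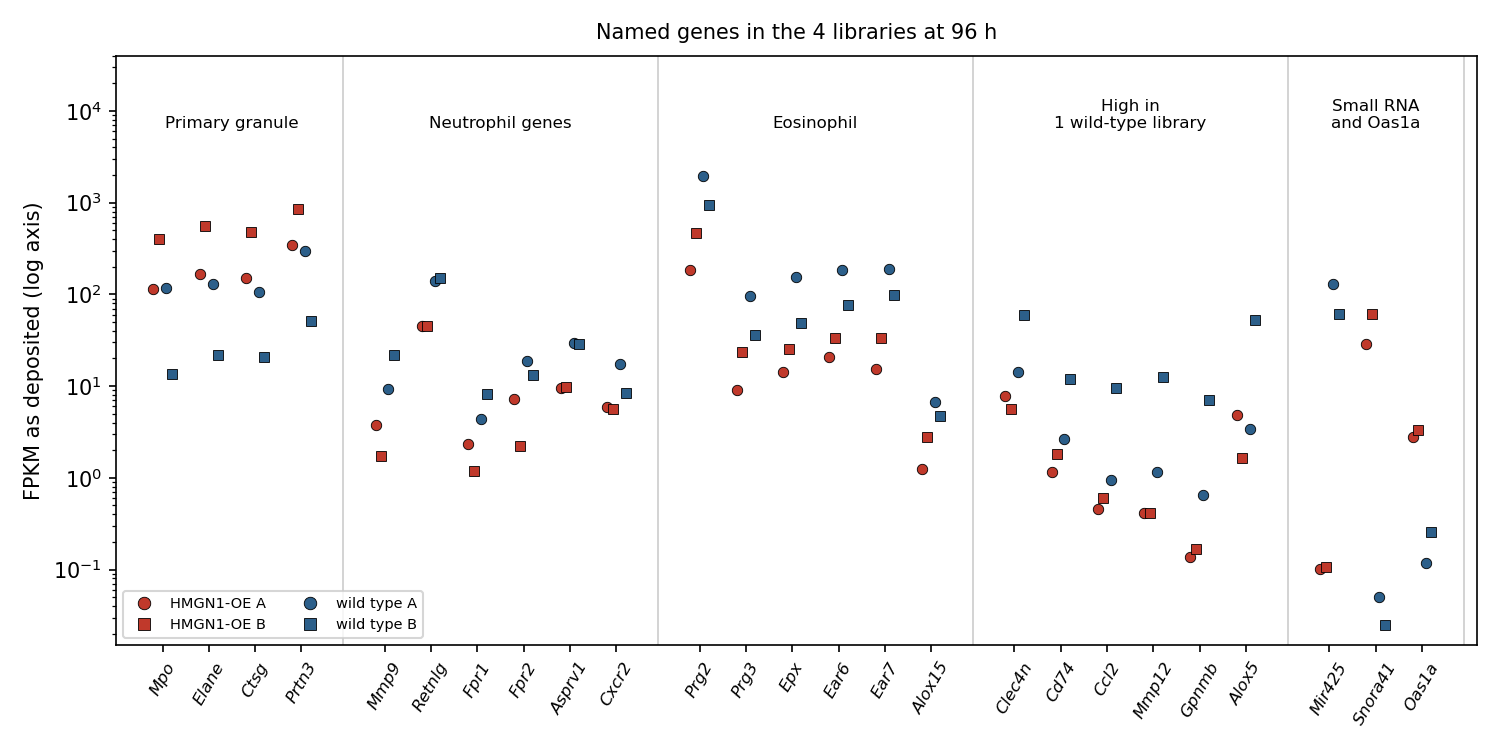
FPKM as deposited (log axis) of named genes in the 4 libraries at 96 h, red for HMGN1-OE and blue for wild type, circles for A and squares for B. The 4 primary granule genes are lowest in wild type B (Elane 21.7 FPKM), the eosinophil genes are lower in both HMGN1-OE libraries than in both wild-type libraries, and the fourth group is led by wild type B.

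The stretches upstream of a few of these genes are shown because several genes of each set differed in the same direction. RefSeq promoters (build GRCm38.p6) were searched on both strands, over the 250 bases before each gene start, for GATAA (GATA factors), TTGCNNAA (C/EBP factors), GAGGAA (the core bound by PU.1) and TGTGGT (RUNX factors). No match overlapped another in the stretches shown. The search covered Mpo, Elane, Prtn3, Ctsg, Epx, Prg3, Ear6, Retnlg, Fpr2 and Asprv1. Prg2, Ear7, Alox15 and Mmp9 were sought as well but had no promoter entry to search. The 120 bases before the start of the neighbouring genes Prtn3 (chr10:79879547-79879666, plus strand) and Elane (chr10:79886192-79886311, plus strand), and of the eosinophil gene Prg3 (chr2:84988095-84988214, plus strand), read as follows, with matches in capitals.
Elane: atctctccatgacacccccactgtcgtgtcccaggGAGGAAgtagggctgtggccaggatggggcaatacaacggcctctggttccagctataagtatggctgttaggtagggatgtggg
Prtn3: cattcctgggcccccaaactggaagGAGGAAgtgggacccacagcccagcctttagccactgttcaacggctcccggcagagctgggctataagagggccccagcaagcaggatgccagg
Prg3: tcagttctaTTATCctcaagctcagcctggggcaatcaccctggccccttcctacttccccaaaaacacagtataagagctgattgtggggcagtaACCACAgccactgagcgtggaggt

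Elane and Prtn3 each held 1 GAGGAA, both on the plus strand, and over the 250 bases Mpo held 2 and Ctsg 1. Fpr2, a gene lower in HMGN1-OE cells, held 1 GAGGAA as well. GAGGAA occurs in 23.3% of all 32851 RefSeq promoters and in 22.7% of the promoters of tested genes. Prg3 held GATAA, here read on the minus strand as TTATC, and TGTGGT, read as ACCACA, in the stretch shown. Fpr2 and Asprv1 each held 1 GATAA in 250 bases, Retnlg 1 TTGCNNAA and Ctsg 1 TGTGGT, so a motif was not limited to the set it is shown for. GATAA occurs in 22.6% and TGTGGT in 14% of all promoters, and in 15% and 11% of the promoters of tested genes. TTGCNNAA occurs in 9.56% and 7.82%. Epx and Ear6 held none of the 4 motifs in 250 bases. A match says only that these letters are present.

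Mmp9, Retnlg, Fpr1 and Fpr2 were called lower in HMGN1-OE cells as deposited. They are members of different lists, Mmp9 and Retnlg of the secondary and tertiary granule list and the receptors of the chemoattractant list, and Asprv1 was added to them after its values were seen. Mmp9, gelatinase B of the tertiary granules, was at 3.80 and 1.75 FPKM in the HMGN1-OE libraries and at 9.25 and 21.7 FPKM in the wild-type libraries. Its log2 difference was -2.07 ± 0.35 (adjusted p = 1.06e-06). Retnlg, a resistin-like protein secreted by neutrophils, was at 45.5 and 45.1 FPKM against 139 and 151 FPKM, and the log2 difference was -1.66 ± 0.44 (adjusted p = 0.0293). Fpr1 and Fpr2, receptors for formyl peptides of bacteria, were also called. Fpr1 was at 2.35 and 1.18 FPKM against 4.37 and 8.29 FPKM (log2 difference -1.39, adjusted p = 0.00426), and Fpr2 at 7.30 and 2.25 FPKM against 18.6 and 13.4 FPKM (log2 difference -1.69, adjusted p = 0.000367). Asprv1, an aspartic protease, was at 9.51 and 9.89 FPKM against 29.2 and 28.5 FPKM (log2 difference -1.48, adjusted p = 0.0148). In each of these genes both HMGN1-OE values lay under both wild-type values.

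Median-scaled, the same genes differed by more, from -2.72 for Mmp9 to -2.01 for Asprv1, with adjusted p-values between 0.0543 and 0.122. Cxcr2, the receptor by which neutrophils leave the marrow, was at 5.96 and 5.68 FPKM against 17.5 and 8.32 FPKM. It was not called as deposited (log2 difference -0.95, adjusted p = 0.859) but was called lower when median-scaled (-1.47, adjusted p = 0.0256). Retnlg lost its call without any one of the HMGN1-OE A, HMGN1-OE B or wild-type B libraries, with differences between -1.72 and -1.60 over the 4 libraries left out. Fpr1 lost its call without the HMGN1-OE B library (-1.08) or the wild-type B library (-0.99), and Fpr2 without the HMGN1-OE B library (-1.01). Mmp9 stayed under the threshold without each of 3 libraries and was at an adjusted p of 0.0552 without the HMGN1-OE B library. With a pseudocount of 0.1, Retnlg (adjusted p = 0.251), Fpr1 (adjusted p = 0.561) and Fpr2 (adjusted p = 0.261) were not called and Mmp9 was (adjusted p = 0.0279). With 0.01 none of the 4 was called, Mmp9 included (adjusted p = 0.136). From the 96 h libraries alone none of the 4 was called, with an adjusted p of 0.502 for Mmp9 and 0.932 for the other genes.

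The abundant secondary granule proteins did not separate as deposited. Ngp, a cathelin-like granule protein, was at 7536 and 7906 FPKM in HMGN1-OE and at 13800 and 5683 FPKM in wild-type cells. Camp, the cathelicidin antimicrobial peptide, was at 3818 and 5112 FPKM against 7470 and 2609 FPKM, Ltf, lactoferrin, at 1212 and 856 FPKM against 2040 and 1033 FPKM, and Lcn2, an iron-siderophore trap, at 1821 and 1660 FPKM against 2768 and 1478 FPKM. Wild-type A was the highest library in all 4 genes and wild-type B was the lowest in Ngp, Camp and Lcn2. Median-scaled, both HMGN1-OE libraries lay under both wild-type libraries in the 4 genes, with log2 differences from -0.49 (Camp) to -1.01 (Ltf), and none was called. Of the 28 secondary and tertiary granule genes tested, Mmp9 and Retnlg were called lower and none higher, against 0.347% and 0.321% of all genes. The difference of 23 of the 28 lay under the median of all genes, and their own median minus it was -0.44 as deposited and -0.59 median-scaled. As a share of a library's FPKM, the list took 6.04% and 5% in the HMGN1-OE libraries, against 8.62% and 7.27% in the wild-type libraries. The primary granule list took 1.37% and 1.63% against 1.33% and 1.84%, with overlap of the libraries and wild-type B the highest.

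Of the 43 lists, that of eosinophil genes had the lowest median difference. Prg2, the major basic protein of eosinophil granules, was at 186 and 472 FPKM in the HMGN1-OE libraries and at 1970.3 and 933 FPKM in the wild-type libraries, with a log2 difference of -2.19 ± 0.54 (adjusted p = 0.00848). Epx, eosinophil peroxidase, was at 14.1 and 25.3 FPKM against 153 and 49.1 FPKM (-2.14 ± 0.45, adjusted p = 0.000449). Prg3, a homologue of Prg2, was at 9.15 and 23.6 FPKM against 96.4 and 36.4 FPKM (-1.94, adjusted p = 0.00158). Alox15, a lipoxygenase of eosinophils and some macrophages, was at 1.23 and 2.76 FPKM against 6.72 and 4.73 FPKM (-1.20, adjusted p = 0.0421). In these genes the wild-type A library was highest and the HMGN1-OE A library lowest, and the genotypes did not overlap.

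Among the eosinophil-associated ribonucleases, Ear6 and Ear7 followed the same order. Ear6 was at 21.0 and 33.7 FPKM against 184 and 77.1 FPKM (-2.12, adjusted p = 0.000214), and Ear7 at 15.3 and 33.2 FPKM against 189 and 97.3 FPKM (-2.53, adjusted p = 2.92e-06). Ear genes are near-identical copies, so the share of reads given to each of them is uncertain. Ear1, Ear2, Ear3 and Ear10 were lower in both HMGN1-OE libraries than in both wild-type libraries as well, Ear2 for instance at 32.8 and 19.1 FPKM against 56.9 and 36.5 FPKM, and were not called.

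Of the 18 genes in the eosinophil list, 17 were found and 11 tested. Of these, 5 were called lower as deposited, against 0.347% of all genes, and none higher. Median-scaled, Epx (adjusted p = 0.0337), Ear6 (adjusted p = 0.033) and Alox15 (adjusted p = 0.0321) were called, against 0.148% of all genes. Prg2 (-2.69, adjusted p = 0.147), Prg3 (-2.47, adjusted p = 0.12) and Ear7 (-3.06, adjusted p = 0.1) were then not called. The differences of all 11 lay under the median of all genes under each of the 3 scalings and in each fit that left out 1 library. The median of the list minus that of all genes was -1.49 as deposited, and -1.71 to -1.05 with 1 library left out. Summed over the 17 genes, FPKM came to 375 and 692 in the HMGN1-OE libraries, against 2700 and 1260 in the wild-type libraries, or 0.0926% and 0.124% of a library against 0.601% and 0.55%. The receptors that define mature eosinophils were low in every library, Ccr3 at 0.135 to 0.288 FPKM and Il5ra, the interleukin-5 receptor, at 0.105 to 0.451 FPKM. Prg2 lost its call without the HMGN1-OE A library (-1.52) or the wild-type A library (-1.65), and so did Prg3 (-1.30 and -1.25), Epx (-1.74 and -1.33) and Ear6 (-1.79 and -1.50). Ear7 lost its call without the HMGN1-OE A library (-2.0), and Alox15 without each of the 4 libraries, with differences between -1.57 and -0.82. With a pseudocount of 0.1 Alox15 was not called (adjusted p = 0.751), and with 0.01 neither Alox15 (adjusted p = 0.727) nor Prg3 (adjusted p = 0.0639) was. From the 96 h libraries alone none of these 6 genes was called (adjusted p from 0.131 to 0.932).

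Basophil and mast cell genes did not give calls. In all, 17 of the 25 listed genes were tested, and 16 had a difference under the median of all genes (list median minus that of all genes, -0.86 as deposited). Without the HMGN1-OE A library 11 of the 17 lay under it, with a list median of -0.39, and without the HMGN1-OE B library all 17 did, with -1.23. The HMGN1-OE libraries disagreed here. Cpa3, mast cell carboxypeptidase, was at 39.1 and 168 FPKM in HMGN1-OE and at 159 and 155 FPKM in wild-type cells, and Mcpt8, a protease of basophils, was at 57.2 and 244 FPKM against 170 and 71.3 FPKM. Gata2, a factor of these lineages, was at 2.08 and 7.36 FPKM against 12.4 and 5.35 FPKM. In each the HMGN1-OE A library was the lowest. The HMGN1-OE A library was also the lowest for the called eosinophil genes, and the part of basophil genes in those differences was not tested.

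Some called genes from several lists had their highest level in the wild-type B library. Clec4n is from the phagocyte receptor list, Cd74 from the monocyte and antigen presentation list, Ccl2 from the inflammatory list and Alox5 from the leukotriene list, and Mmp12 and Gpnmb were added after their values were seen. Clec4n (Dectin-2, a receptor for fungal sugars) was at 7.83 and 5.66 FPKM in HMGN1-OE and at 14.4 and 59.0 FPKM in wild-type cells (-1.99, adjusted p = 0.000133). Cd74, the invariant chain of MHC class II, was at 1.16 and 1.84 FPKM against 2.67 and 12 FPKM (-1.48, adjusted p = 0.00167), and Ccl2, a chemokine for monocytes, at 0.454 and 0.596 FPKM against 0.947 and 9.60 FPKM (-1.58, adjusted p = 0.000748). Mmp12, macrophage elastase, was at 0.417 and 0.413 FPKM against 1.16 and 12.6 FPKM, and Gpnmb, a glycoprotein of macrophage lysosomes, at 0.138 and 0.166 FPKM against 0.653 and 7.05 FPKM. Alox5, which starts leukotriene synthesis, was at 4.85 and 1.65 FPKM against 3.41 and 52.4 FPKM, so its libraries overlapped although it was called (-1.96, adjusted p = 0.000959). Median-scaled, none of the 6 was called, with differences from -2.85 (Mmp12) to -2.17 (Cd74) and adjusted p-values from 0.134 (Clec4n) to 0.436 (Alox5).

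In each of these genes the wild-type B library was the highest. Without it the differences were -1.01 for Clec4n, -0.57 for Cd74, -0.35 for Ccl2 and -0.16 for Alox5, and none was called. Without the HMGN1-OE B library Clec4n (-1.78), Ccl2 (-1.64) and Alox5 (-1.39) lost their calls, and without the HMGN1-OE A library Cd74 (-1.28) and Ccl2 (-1.51) did. With a pseudocount of 0.1 Cd74 was not called (adjusted p = 0.344), and with 0.01 Clec4n (adjusted p = 0.0747), Ccl2 (adjusted p = 0.0629) and Cd74 (adjusted p = 0.585) were not. From the 96 h libraries alone Ccl2 was called (adjusted p = 0.0344) and Clec4n, Cd74 and Alox5 were not. Other macrophage genes did not separate the genotypes. Csf1r, the receptor for macrophage colony-stimulating factor, was at 7.52 and 8.64 FPKM against 7.17 and 13.5 FPKM, and Mrc1, the mannose receptor, at 1.27 and 1.55 FPKM against 1.44 and 3.00 FPKM. Of 23 monocyte and antigen presentation genes tested, Cd74 was called lower, against 0.347% of all genes, and 17 lay under the median of all genes. Median-scaled, the list's median, set against all genes, was 0.28 and 0.32 in the comparisons with the wild-type A library and -1.32 and -0.88 in those with the wild-type B library. Its summed FPKM came to 1120 and 1890 in the HMGN1-OE libraries, against 1110 and 786 in the wild-type libraries.

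Other lists of mature myeloid function lay under the median of all genes with few calls. Of 31 phagocyte receptors tested, 27 lay under it, with a list median of -0.57 relative to all genes, and Clec4n was called lower, against 0.347% of all genes. Of 19 chemoattractant receptors and adhesion molecules, 16 lay under it, with a list median of -0.38, and Fpr1 and Fpr2 were called lower, again against 0.347%. Of 25 cytokine receptors, 21 lay under it with no call, and of 27 inflammatory genes, 22 with Ccl2 called lower, against the same 0.347%. Median-scaled, Cxcr2 was the 1 gene called in these 4 lists, against 0.148% of all genes called lower. Also median-scaled, the median of each of these lists was under that of all genes in each of the 4 single-library comparisons. The values nearest to all genes were -0.21 for the phagocyte receptors, -0.23 for the chemoattractant receptors, -0.04 for the cytokine receptors and -0.11 for the inflammatory genes, each against the wild-type A library.

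**Figure D3:**
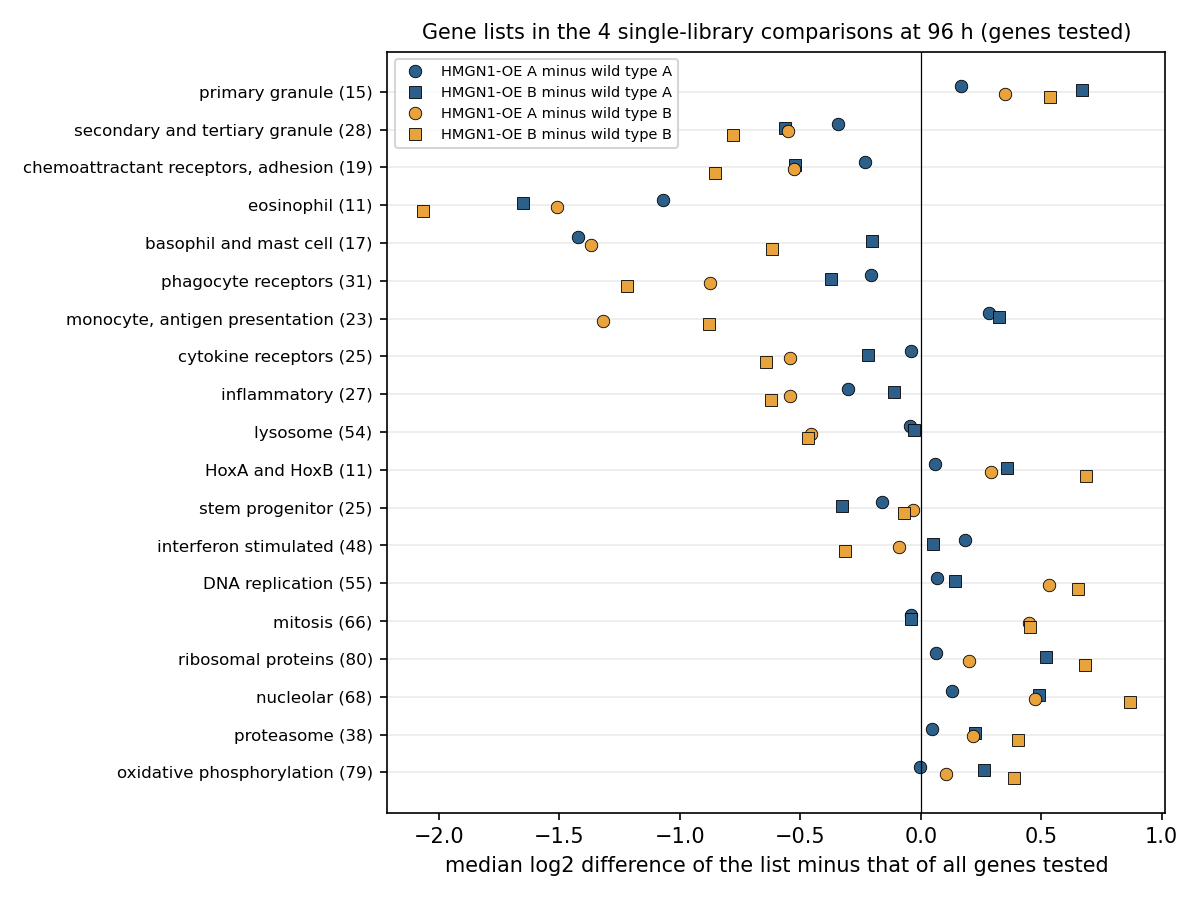
Median log2 difference of each gene list minus that of all genes tested, for each of the 4 comparisons of 1 HMGN1-OE with 1 wild-type library (median-scaled; the number of genes tested is in brackets). The eosinophil list lies between -2.07 and -1.07 in all 4, whereas the DNA replication and mitosis lists lie near 0 against wild type A and near 0.5 against wild type B.

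Genes of growth and division showed the opposite side, with a strong dependence on the wild-type B library. All 55 DNA replication genes tested lay above the median of all genes, by a median of 0.43 as deposited and 0.37 median-scaled, and none was called. Mcm2, a subunit of the replicative helicase, was at 25.0 and 37.0 FPKM in HMGN1-OE and at 28.2 and 7.93 FPKM in wild-type cells. Median-scaled, against the wild-type A library alone the list's median was 0.07 and 0.14 above that of all genes, and against the wild-type B library 0.53 and 0.65. The 66 mitosis genes behaved alike. Of these, 64 lay above the median of all genes as deposited, but only 16 did so without the wild-type B library, where the list's median was -0.06. Top2a, which untangles DNA in mitosis, was at 103 and 124 FPKM against 123 and 37.8 FPKM.

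Ribosomal protein genes and nucleolar genes lay above the median of all genes too. All 80 ribosomal protein genes tested lay above the median of all genes, by a median of 0.51 as deposited and 0.37 median-scaled, and all 80 did so without the wild-type B library, by a median of 0.26. All 68 nucleolar genes lay above it, by 0.48 as deposited, and 64 did so without the wild-type B library, by 0.27. Without the HMGN1-OE B library the medians fell to 0.22 for the ribosomal protein genes and 0.28 for the nucleolar genes. In median-scaled single-library comparisons the ribosomal list's median was 0.06 and 0.20 above that of all genes with the HMGN1-OE A library, and 0.52 and 0.68 with the HMGN1-OE B library. Npm1, nucleophosmin, was at 126 and 288 FPKM against 150 and 43.4 FPKM, and Ncl, nucleolin, at 36.1 and 59.4 FPKM against 43.7 and 12.7 FPKM. The HMGN1-OE A library lay between the wild-type libraries in both genes. Proteasome genes lay above the median in 37 of 38. Rpl34, with 365 and 566 FPKM against 288 and 21.3 FPKM, was the 1 ribosomal protein gene called (adjusted p = 0.00748), against 0.321% of all genes called higher. It lost its call without the HMGN1-OE A library (2.82), the HMGN1-OE B library (2.19) or the wild-type B library (0.66), and was not called median-scaled (adjusted p = 0.326). Rpl34 has close copies in the pseudogenes Rpl34-ps1 and Gm9846, which were called in opposite directions, so that the division of reads among the 3 is uncertain.

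Transcription factors of the lineage gave no call. Of 29 myeloid factors tested, 13 lay above the median of all genes, and the list's median differed from it by -0.07. Cebpa, needed for entry into the granulocyte line, was at 17.2 and 31.8 FPKM against 18.5 and 9.51 FPKM. Gfi1, a repressor that favours neutrophils over monocytes, was at 13.3 and 24.8 FPKM against 16 and 4.84 FPKM. Gata1, which drives the eosinophil as well as the erythroid line, was at 0.410 and 0.961 FPKM against 2.74 and 0.793 FPKM. Of 25 stem and progenitor genes, 7 lay above the median as deposited and 10 median-scaled. Of the 11 HoxA and HoxB genes tested, 6 lay above it as deposited, with a list median of 0.06, and all 11 did median-scaled, with 0.45. Of all 21 genes in the Hox list, 17 stayed under 1 FPKM in each of the 4 libraries at 96 h. Most of these differences therefore rest on values near the floor. Neither list held a call under either scaling. Hoxb8, the most abundant HoxA or HoxB gene at 96 h, may include reads of the retroviral HoxB8 fusion. Hoxa9, a self-renewal factor, was at 0.588 and 4.22 FPKM against 0.828 and 0.034 FPKM (log2 difference 1.07, adjusted p = 0.708). Its libraries overlapped, and its call depended on the pseudocount, with 2.29 (adjusted p = 0.012) at 0.1 and 3.05 (adjusted p = 0.000319) at 0.01. Endogenous mouse Hmgn1 was at 10.1 and 20.7 FPKM against 11.1 and 4.71 FPKM (log2 difference 0.90, adjusted p = 0.859), with overlap of the libraries.

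Outside these lists, some genes stood apart in both HMGN1-OE libraries at 96 h and also at the earlier times. C1qtnf6, a secreted protein of the C1q and TNF-related family, was at 3.56 and 7.48 FPKM in HMGN1-OE and at 0.175 and 0.0566 FPKM in wild-type cells (2.48 ± 0.45, adjusted p = 9.46e-06), and its difference was 3.84 at 36 h and 3.90 at 0 h. Oas1a, an interferon-induced oligoadenylate synthetase, was at 2.78 and 3.36 FPKM against 0.117 and 0.256 FPKM (1.78, adjusted p = 0.000266) and was called at all 3 times. Il11ra1, the interleukin-11 receptor, was at 2.29 and 4.71 FPKM against 0.500 and 0.385 FPKM (1.59, adjusted p = 0.0388). BC064078 was at 0.565 and 0.282 FPKM against 17.4 and 3.80 FPKM (-2.73, adjusted p = 3.72e-06), and its difference was larger at the earlier times, -6.35 at 36 h and -6.34 at 0 h. These 4 genes were also called when median-scaled. As deposited, C1qtnf6 (2.03) and Oas1a (1.67) lost their calls without the HMGN1-OE B library, BC064078 (-1.76) without the wild-type A library, and Il11ra1 without any 1 of the 4 libraries (1.19 to 1.99). Among 48 interferon-stimulated genes tested, Oas1a was the only call as deposited, against 0.321% of all genes, and 19 lay above the median of all genes. Median-scaled, 24 of the 48 did, and Oas1a and Oas1g were called higher, against 0.156%. Oas1g, a close copy of Oas1a, was at 1.63 and 1.5 FPKM against 0.105 and 0.175 FPKM (1.52 median-scaled, adjusted p = 0.0337), and the reads of each are uncertain. Oas1g reached 1 FPKM in HMGN1-OE libraries alone and was tested through them.

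Of the 43 called genes that are not small RNA genes, 11 were called at all 3 times and 25 were called at 96 h and at neither earlier time. A call at 96 h without one earlier is not a test of the change, and the interaction passed in 13 of the 43 against 0 h and in 8 against 36 h. Of all tested genes, 1.36% were called at 0 h and 1.26% at 36 h. Rnf144a, a ubiquitin ligase, was at 0.185 and 0.159 FPKM against 5.42 and 3.19 FPKM (-2.15 ± 0.34, adjusted p = 1.13e-07) and was called under each of the 3 scalings and without each of the 4 libraries. It was not called at 0 h or 36 h. Its interactions did not pass as deposited (adjusted p = 0.128 against 0 h and 0.136 against 36 h) and passed when median-scaled (0.00965 and 0.00809). Clu, the chaperone clusterin, was at 3.09 and 5.92 FPKM against 1.27 and 0.236 FPKM (1.67, adjusted p = 0.000149). Cth, which makes cysteine from cystathionine, was at 3.81 and 9.29 FPKM against 1.96 and 0.400 FPKM (1.79, adjusted p = 0.000568). Saa3, an acute phase protein, was at 15.4 and 26.7 FPKM against 6.78 and 5.48 FPKM (1.58, adjusted p = 0.0145). Clu and Cth lost their calls without the HMGN1-OE B library (1.29 and 1.24) or the wild-type B library (1.23 and 1.25). Myl10, a myosin light chain, was at 208 and 355 FPKM against 114 and 19.6 FPKM (2.49, adjusted p = 0.00462). Without the HMGN1-OE B library its difference was 2.10 and without the wild-type B library 1.25, and neither was called. Lpcat2, an enzyme of platelet-activating factor synthesis, was at 0.147 and 3.89 FPKM against 8.84 and 10.9 FPKM (-2.19, adjusted p = 0.000226) and lost its call without the HMGN1-OE A library (-1.15). Median-scaled, Clu was called (1.88, adjusted p = 0.049), and Cth (1.87, adjusted p = 0.0832), Saa3 (1.19, adjusted p = 0.138), Myl10 (2.02, adjusted p = 0.116) and Lpcat2 (-3.16, adjusted p = 0.145) were not.

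The test of genotype by time asked whether a difference at 96 h differed from that at an earlier time. As deposited, 78 genes (0.677%) passed against 0 h and 63 (0.547%) against 36 h, and 4 (0.0347%) and 3 (0.0261%) genes passed when median-scaled. As deposited, Elane, Mpo and Prtn3 turned direction. Median-scaled, only 1 of the 4 genes that passed against 0 h had a positive interaction, so at most 1 of these 3 kept its call. Elane was at 106 and 74.0 FPKM in HMGN1-OE and at 409 and 867 FPKM in wild-type cells at 0 h, a log2 difference of -2.74, against 2.50 at 96 h (interaction 5.23, adjusted p = 3.77e-07). Mpo went from -2.37 at 0 h to 2.39 at 96 h (adjusted p = 1.65e-05), and Prtn3 from -1.45 to 2.11 (adjusted p = 0.00876). For Ctsg the change, from -0.22 to 2.48, did not pass (adjusted p = 0.21). At 36 h Elane had been at 1772 and 1260.3 FPKM in HMGN1-OE and at 2864 and 1109 FPKM in wild-type cells, so that both genotypes were lower at 96 h than at 36 h.

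The monocyte antigen genes Ly6c1 and Ly6c2 showed the same turn as deposited. Ly6c2 was at 10.9 and 8.43 FPKM in HMGN1-OE against 92.3 and 846 FPKM in wild-type cells at 0 h, and at 702 and 1257 FPKM against 662 and 307 FPKM at 96 h, and its interaction passed (adjusted p = 2.69e-09 against 0 h and 0.0053 against 36 h). Median-scaled, 1 positive interaction was left against 0 h and 1 against 36 h over all genes. Whether Ly6c2 was among these is not given. Ly6c1 and Ly6c2 are close copies, and the reads of each are uncertain.

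Eosinophil genes turned the other way. Epx was at 4.72 and 4.33 FPKM in HMGN1-OE and at 1.64 and 0.409 FPKM in wild-type cells at 0 h, a log2 difference of 1.52, against -2.14 at 96 h (interaction -3.66, adjusted p = 3.14e-06). Prg2 went from 1.41 to -2.19 (adjusted p = 0.000527), Ear7 from 0.45 to -2.53 (adjusted p = 0.000378) and Ear6 from 0.60 to -2.12 (adjusted p = 0.00158). All of them were higher at 96 h than at 0 h in both genotypes, Prg2 for instance from 19.8 and 12.1 to 186 and 472 FPKM in HMGN1-OE and from 9.88 and 2.54 to 1970.3 and 933 FPKM in wild-type cells. Mmp9 was between 0.142 and 0.387 FPKM in every library at 0 h and 36 h, and its interaction passed against both times (adjusted p = 0.00106 and 0.00582). Clu passed against both as well (adjusted p = 0.0257 and 0.0255). None of these interactions was called when median-scaled.

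**Figure D4:**
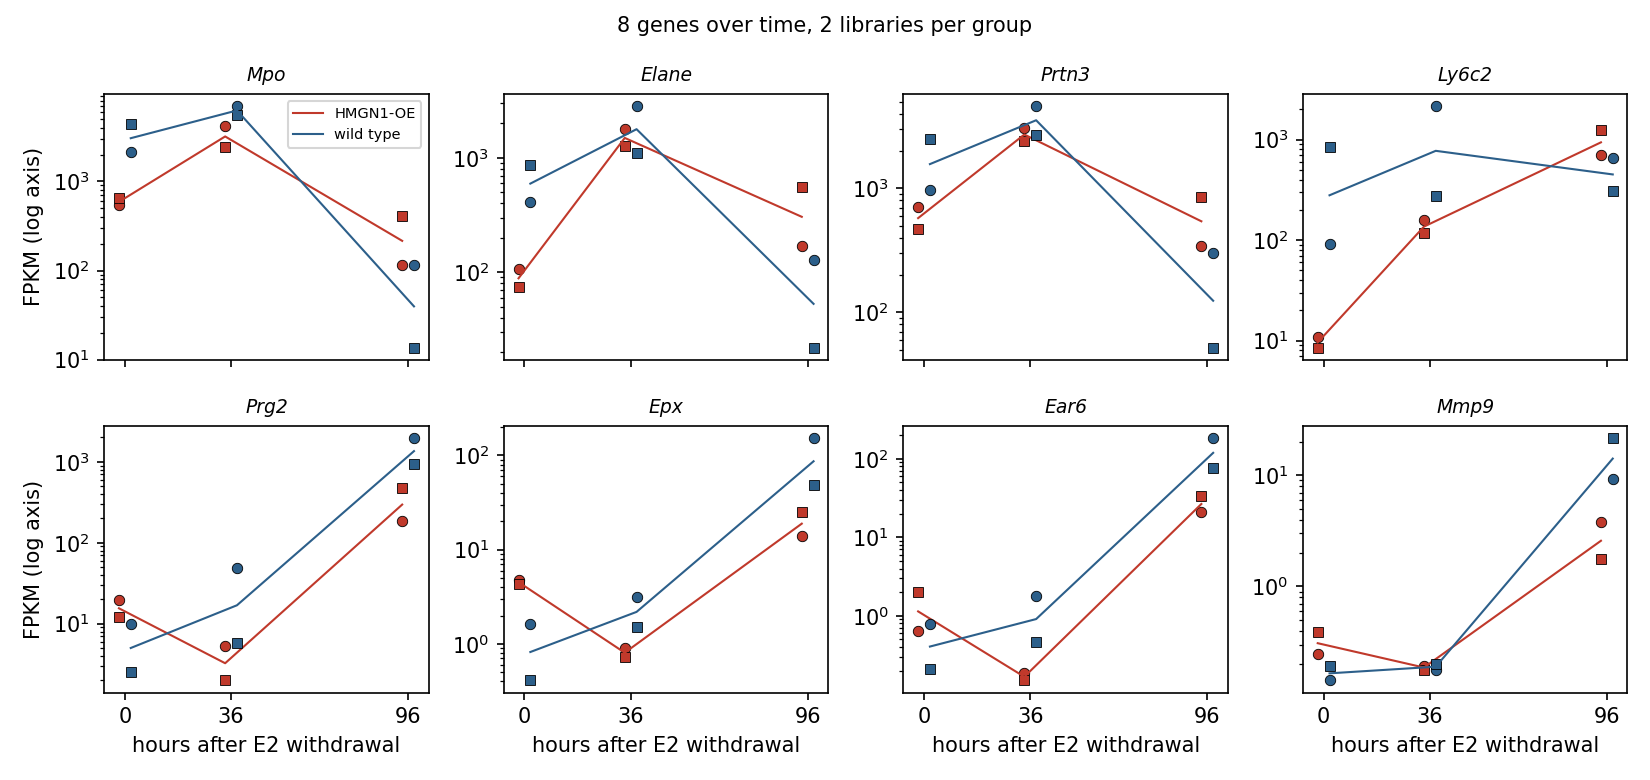
FPKM (log axis) of 8 genes at 0, 36 and 96 h, red for HMGN1-OE and blue for wild type, with circles and squares for the libraries A and B of a group and lines through their geometric means. Mpo, Elane, Prtn3 and Ly6c2 are lower in HMGN1-OE at 0 h and have a higher mean at 96 h, and Prg2, Epx and Ear6 do the reverse.

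Some calls did not come from protein-coding genes. The reads over the microRNA gene Mir425 stood at 0.102 and 0.107 FPKM in HMGN1-OE and at 129 and 61.5 FPKM in wild-type cells at 96 h, while the 8 earlier libraries of both genotypes were between 0.118 and 0.140 FPKM. It was called under each of the 3 scalings and in all 16 alternative fits that could be made for it, but it reached 1 FPKM in the wild-type libraries at 96 h alone and so was tested only because of the group in which it is high. Snora41, a small nucleolar RNA gene inside Eef1b2, was at 29.0 and 61.9 FPKM in HMGN1-OE and at 0.050 and 0.025 FPKM in wild-type cells at 96 h, but between 32.9 and 315 FPKM at the earlier times, and was called under each scaling. Mir2861, Snord89 and AF357399 were above 1 FPKM in the wild-type B library alone at 96 h. Genes this short are poorly measured in libraries of poly(A) RNA, and their FPKM does not give the level of the mature small RNA.

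S100a9, the partner of S100a8, had the largest log2 difference (8.53) through a single value. It was at 51875 and 73461 FPKM in the HMGN1-OE libraries, at 26546 FPKM in wild-type B and at 0.051 FPKM in wild-type A, where S100a8 stood at 69948 FPKM. Without the wild-type A library the difference was 1.22 and was not called (adjusted p = 0.184), nor was the gene called median-scaled (adjusted p = 0.243).

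Median scaling and centring added genes of small but even difference. Stc2, stanniocalcin, was at 3.11 and 3.92 FPKM in HMGN1-OE and at 1.85 and 0.456 FPKM in wild-type cells and was called higher when centred (0.74, adjusted p = 0.0353). Adpgk, a kinase of glucose, was at 57.1 and 63.4 FPKM against 111 and 52.6 FPKM and was called lower (-0.74, adjusted p = 0.0353), and Spns3, a lipid transporter, was at 2.68 and 4.38 FPKM against 8.31 and 3.40 FPKM and was called lower (-0.93, adjusted p = 0.0353). None of the 3 was called as deposited.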

How the data were processed

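Polyadenylated RNA was sequenced from 12 libraries, 2 in each of 6 groups of genotype and time. The authors deposited 1 table of FPKM, 23309 genes and 92 ERCC RNAs. The submitters' processing notes name HISAT, Cufflinks 2.0.0 and the build mm9, whereas the study's methods describe Bowtie, RPKM and a loess normalization on the ERCC RNAs, and the difference was not resolved. The table holds no counts, so the depth is unknown and no counting error is given. ERCC levels were even across libraries, and differences in total FPKM between libraries were left in the deposited values.

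From the deposited FPKM, log2(FPKM + 1) was fitted with limma 3.58.1 in R 4.3.3 (trend, 6 group means, 6 residual degrees of freedom, two-sided, Benjamini-Hochberg over 11516 genes), with calls at an adjusted p under 0.05. As deposited the prior degrees of freedom were infinite, so standard errors follow the trend with expression level and not the spread of a gene's own libraries. They were 2.87 after centring and 2.37 median-scaled. P-values rest on the spread between these libraries, as deposited through the trend over genes of like level and not gene by gene. S100a9, for instance, had an adjusted p of 4.15e-40 as deposited and 0.129 in limma without the trend. Gene kinds and lengths are those of GENCODE vM21 (21687 rows matched by symbol and 1268 by an older symbol). Strand use in counting is not given in the sources used here, so reads of overlapping genes cannot be told apart. Among the genes named by the rule below, this touches Mpo, Prtn3, Fpr2, Ccl2, Cd74, Cth, C1qtnf6, Il11ra1, Lpcat2, Rnf144a, Adpgk, Itgam, Hoxa7, Hoxa9, Cpa3, Mcpt8, Ncl and all the small RNA genes given. The other genes were not searched for overlaps.

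The members, lists and comparisons were chosen with earlier results of these data known. Genes were named by rule: up to 15 called genes without overlap in each direction as deposited and up to 10 when centred, those with the largest differences, the called and the 4 most abundant members of each of 43 lists, 6 fixed genes (Hmgn1, Hoxa7, Hoxa9, Itgam, Cebpe and Kit) and the interactions of these. Asprv1, Cxcr2, Mmp12, Gpnmb, Saa3, Csf1r, Mrc1, Gata1, Gata2, Cebpa, Gfi1, Mcm2, Top2a, Ear1, Ear2, Ear3, Ear10, Ltf, Oas1g, Ccr3 and Il5ra lie outside it and were named after their values were seen. Median scaling and the removal of small RNA genes were also chosen after seeing the data. The fit was tested on simulated data. Figures were drawn with matplotlib.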

Additional observations from a re-analysis of the deposited data

Results flagged for a closer look

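The groups hold 2 libraries each, too few to look for an outlying sample within a group. The genes given here had a difference between genotypes at 96 h that differed from the difference at an earlier time, by limma's interaction as deposited. Each value is the log2 difference at 96 h minus that at the earlier time.

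Primary granule genes had positive values, for Elane 5.23 against 0 h (adjusted p = 3.77e-07) and for Mpo 4.76 against 0 h (1.65e-05) and 3.36 against 36 h (adjusted p = 0.0237). Clu had 1.77 against 0 h and 1.79 against 36 h. BC064078 had 3.61 and 3.62, since its lower level in HMGN1-OE cells was nearer to that of wild-type cells at 96 h.

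Eosinophil genes had negative values against 0 h, for Epx -3.66, for Prg2 -3.60, for Ear7 -2.98 and for Ear6 -2.72. Mmp9 had -2.24 against 0 h and -2.07 against 36 h. Hoxa7 had -1.88 against 0 h (adjusted p = 0.0356), with a difference of 2.40 at 0 h and 0.52 at 96 h, where its FPKM was 0.324 and 0.907 against 0.167 and 0.0467. With values this low the size at 96 h depended on the pseudocount. It was 1.72 with a pseudocount of 0.1 and 2.47 with 0.01.

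Single values decided others. S100a9 had 8.75 against 0 h and 11.1 against 36 h through its 0.051 FPKM in the wild-type A library, and Rpl34-ps1 had -3.34 against 0 h, with 0.046 FPKM in the HMGN1-OE A library and 127 FPKM in the HMGN1-OE B library. Small RNA genes were among them as well. Snord35b had 7.67 and 12.5, Snora41 7.69 and 5.26, Mir425 -6.35 and -6.33, Snord89 -2.07 and -2.19, and AF357399 -5.57 and -2.19, against 0 h and 36 h. Snora7a had 4.13 against 36 h, and Mir2861 had -3.25 against 0 h.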

How the results depend on the processing

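No paired analysis was possible because the digits in the column names differ from the replicate numbers in the titles. With 2 libraries a group and no counts, a gene's own spread is poorly known. limma as deposited took it from the trend, and the counts of calls depended on this more than on any pseudocount, although pseudocounts of 0.1 and 0.01 raised the share of higher calls (59 of 97 and 69 of 101, against 37 of 77). Given as calls at 96 h as deposited, then interactions with 0 h and with 36 h (77, 78 and 63 in the report), the counts were 7, 14 and 7 without the trend, 31, 30 and 13 with limma's robust option, 2, 3 and 2 without moderation, 15, 8 and 7 without a filter, 26, 4 and 3 after quantile normalization, 7, 4 and 2 centred, 35, 4 and 3 median-scaled, and 41, 43 and 17 without small RNA genes. With a mean of at least 5 FPKM there were 51 calls at 96 h. Leaving out 1 library gave 41 (without HMGN1-OE B) to 127 (without wild-type A), 55 to 111, and 45 to 106. The median difference over genes went from -0.05 (without wild-type B) to 0.79 (without wild-type A).

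Of the genes in the lists, 19 were called as deposited, 0 without a filter, without the trend, without moderation or centred, 10 with a mean of at least 5 FPKM, 8 after quantile normalization, 6 from the 96 h libraries alone and 9 median-scaled, and 6 to 34 with 1 library left out.

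Centred (7, 4 and 2 calls), the counts were 12 and 19 at 96 h with pseudocounts of 0.1 and 0.01, 163, 208 and 154 without a filter, 26 at 96 h after quantile normalization, 11 at 96 h from the 96 h libraries alone, 2 at 96 h and 2 against 0 h without the trend, and 2, 1 and 1 without moderation. With a mean of at least 5 FPKM, 2 and 0 interactions were left. Without small RNA genes none was left, and the median-scaled calls were 35 at 96 h. Leaving out 1 library gave 1 to 1264 (without wild-type A) at 96 h, 2 to 2, and 1 to 3. Median-scaled (35, 4 and 3 calls), leaving out 1 library gave 6 (without HMGN1-OE B) to 2165 (without wild-type A), 3 to 507, and 2 to 87. In these fits the library left alone in its group is assumed to vary like the other groups, and the cause of the high counts was not tested. The mitosis list had a median of -0.06 as deposited and -0.04 median-scaled against all genes without wild-type B, opposite to the other fits. Without a filter the median difference over genes was 0.01, and list medians set against it changed. They were -0.79 for eosinophil, -0.18 for basophil and mast cell and -0.09 for secondary and tertiary granule genes. Phagocyte receptors were at -0.13 and chemoattractant receptors at -0.03. Primary granule genes were at 0.68, ribosomal protein at 0.86, nucleolar at 0.83, DNA replication at 0.78 and mitosis genes at 0.66.

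Of 796 refits of the named genes, 454 kept direction and call, 321 lost the call in the same direction, 10 gained one, and 11 turned the direction of a gene that was not called.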
